A study of Mus musculus with 32 samples.

Results

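Cadherins are calcium-dependent adhesion proteins of the cell surface, and the genes described here are the cadherins, the FAT and Dachsous giants, the CELSR receptors and the protocadherins that lie outside the clustered arrays. Members were taken by gene symbol, from Cdh, Cdhr and Pcdh followed by a number, Celsr1 to Celsr3, Fat1 to Fat4, and Dchs1 and Dchs2. The rule found 48 members among 26331 named genes, of which 23 were Cdh genes and 12 were protocadherins, and Dchs2 had no row in the files. The rule uses no measured value, though it was set with earlier results of these data known. RNA was sequenced from 32 mouse embryo libraries of dorsal telencephalon at embryonic day E12.5 or cortex at E15.5, in a study of loss and gain of the histone acetyltransferase gene Kat6b. On the inbred C57BL/6 background, Kat6b-/- embryos (called labelled knockout here) and wild-type embryos were sampled with 3 libraries per genotype at the younger age and 5 per genotype at the older one. On a mixed FVBxBALB/c background, embryos with the transgene Tg(Kat6b) and wild-type embryos were sampled with 4 libraries per genotype and age. The mixed background was used since the transgenic mice did not survive inbred, the promoter of the transgene is not given in the sources used here, and all C57BL/6 libraries were one sequencing batch and all mixed ones the other.

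Classical cadherins of type I and type II bind their like on the neighbouring cell and are tied to actin through catenins. In the embryonic cortex they hold the neuroepithelium together at its apical junctions and help neurons of like identity sort and connect. Delta protocadherins adhere more weakly, and members of the delta-2 class signal to the actin regulators of the WAVE complex. FAT4 and DCHS1 are a receptor and ligand pair, and the CELSR proteins are core members of the planar polarity pathway, which orients cells and guides axon tracts.

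Counts assigned to named genes totalled 10383066 to 49508669 per library, and the 48 members took 0.222% to 0.345% of them. Kat6b itself measured 551 ± 56.9 CPM (counts scaled to library size; SD, n = 4) at E12.5 and 655 ± 75.3 at E15.5 in Tg(Kat6b), against 179 ± 21.2 and 181 ± 31.3 in their controls. Labelled knockout libraries had 154 ± 35.7 CPM (n = 3) and 174 ± 16.5 (n = 5), close to the 171 ± 22 and 171 ± 16.4 of wild type. These counts cover the whole gene and so do not check a deletion of a piece of it. The 8 cortical markers examined were detected in every group, with a summed level of 1136 to 4361 CPM per library. Markers of meninges and mesenchyme summed to 267 to 2248 CPM in the E12.5 libraries and to 46.3 to 220 at E15.5. Highest were labelled knockout replicate 3, the mixed wild-type replicate 4 and the C57BL/6 wild-type replicate 1, all at E12.5. Labelled knockout replicates 3 and 4 at E15.5 were the most alike pair of that group, with a median squared count difference 1.92 times that of sampling noise, where the next closest pair had 5.50. A difference above sampling noise cannot tell separate embryos from repeat preparations of the same embryo. The labels give replicates 3 and 4 different litters, and they were kept as 2 libraries. Both lay apart from the other E15.5 libraries of C57BL/6 on the second principal component, both had 220 CPM of meningeal and mesenchymal markers, and in replicate 3 the ribosomal RNA gene Rn45s took 17.8% of counts, against at most 0.667% in any other library. Both C57BL/6 replicates 5 at E15.5 carry file headings that name another age and number, and the labelled knockout one has the tissue label of the younger age, but in a principal component analysis both lay among the libraries of the older age, and no member was called or lost in the knockout comparisons without them. In tissue samples such as these, fewer cells of a type and less RNA per cell cannot be told apart.

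Cdh2, which encodes N-cadherin of the neuroepithelial junctions, was the most abundant member per unit of gene length in all 8 groups. Its mean level ranged from 77.8 RPKM (counts scaled to library size and gene length) in labelled knockout at E12.5 to 102 RPKM in Tg(Kat6b) at E15.5, or 19.1% to 27.0% of the summed RPKM of all members. At E12.5 the next member in all 4 groups was Cdh11, a type II cadherin also made by mesenchyme, at 26.7 to 34.5 RPKM. At E15.5 the next was Cdh13 in all 4 groups, at 36.0 to 42.1 RPKM. Over all 32 libraries Celsr2, Cdh13, Cdh11, Dchs1 and Cdh4 followed Cdh2, with means between 25.8 and 20.8 RPKM.

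Members of other epithelia were near or at 0. The lowest were Cdh16, a kidney cadherin, with at most 2 counts in any library, and Cdhr5, a brush-border cadherin, also with at most 2. Those 2 genes and Cdh17, Cdh19, Cdh26 and Fat2, a gene of cerebellar granule cells, failed the filter on low counts in every fit, at 0.278 CPM on average or less. The filter left 41 members among 16118 genes in C57BL/6 and 40 among 15556 in the mixed background. Of the tested members, Cdhr3 passed the filter only in the mixed background, and Cdhr2 and Cdh15 only in C57BL/6.

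Whether loss of Kat6b changed these adhesion genes was asked by comparing labelled knockout with wild type at each age. No member passed the edgeR threshold (adjusted p below 0.05 over all genes) at E12.5 or at E15.5. At E12.5, 1 gene of 16118 passed (0.00620%), and at E15.5 none did (0%). An unadjusted p under 0.05 was found for 5 of 41 members at E12.5, against 5.22% of all genes, and for 2 of 41 at E15.5, against 2.83%. DESeq2 called no member at E12.5 and 1, Cdhr1, at E15.5, and limma-voom called none at either age. The members' median log2 fold change was -0.06 at E12.5 and 0.10 at E15.5, beside -0.01 and 0.01 for all genes. The 95% interval lay within 1 log2 unit of 0, and so excluded a 2-fold change, for 31 of 41 members at E12.5 and 35 of 41 at E15.5.

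Cdhr1, a cadherin known from photoreceptor outer segments and from olfactory bulb output neurons, had the smallest p of any member at E15.5. It had 3.40, 13.9, 7.71, 8.51 and 5.34 CPM in the 5 labelled knockout libraries at E15.5 and 2.82, 2.04, 2.81, 1.84 and 2.7 CPM in wild type. Every labelled knockout library was above every wild-type one, and the spread within the knockout group was wide. The log2 fold change was 1.68 (SE 0.32, 95% interval 1.00 to 2.36), with an edgeR adjusted p = 0.356, so it did not pass over all genes. DESeq2 gave 1.67 with an adjusted p = 0.00104 and limma-voom 1.41 with an adjusted p = 0.999. Among all genes 0.726% had groups that did not overlap at this age, and Cdhr1 was the single such member. With labelled knockout replicates 3 and 4 left out, the log2 fold change was 1.61 with an edgeR adjusted p = 1.00. With these 2 libraries summed as 1, a setting chosen after the data were seen, it was 1.66. Over single libraries left out the value was 1.35 to 1.87 and the adjusted p 0.0920 to 1.00. At E12.5 the 3 labelled knockout libraries measured 4.25, 1.97 and 2.22 CPM and wild type 2.77, 2.43 and 2.05 CPM, which overlap. The difference of the knockout effect between the ages was 1.49 (SE 0.52, edgeR adjusted p = 1.00). At E15.5 olfactory bulb markers had a median sum of 2.69 CPM (2.21 to 3.07) in labelled knockout and 2.38 CPM (1.91 to 8.13) in wild type. Eye markers had medians of 0.831 CPM (0.503 to 8.87) and 2.86 CPM (0.353 to 8.29). Choroid plexus and hem markers had a median sum of 493 CPM (53.2 to 542) in labelled knockout. In wild type the median was 54.1 CPM (46.9 to 667). The ranges of each list overlap, and the part of any of these tissues in the Cdhr1 value was not tested.

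**Figure D1:**
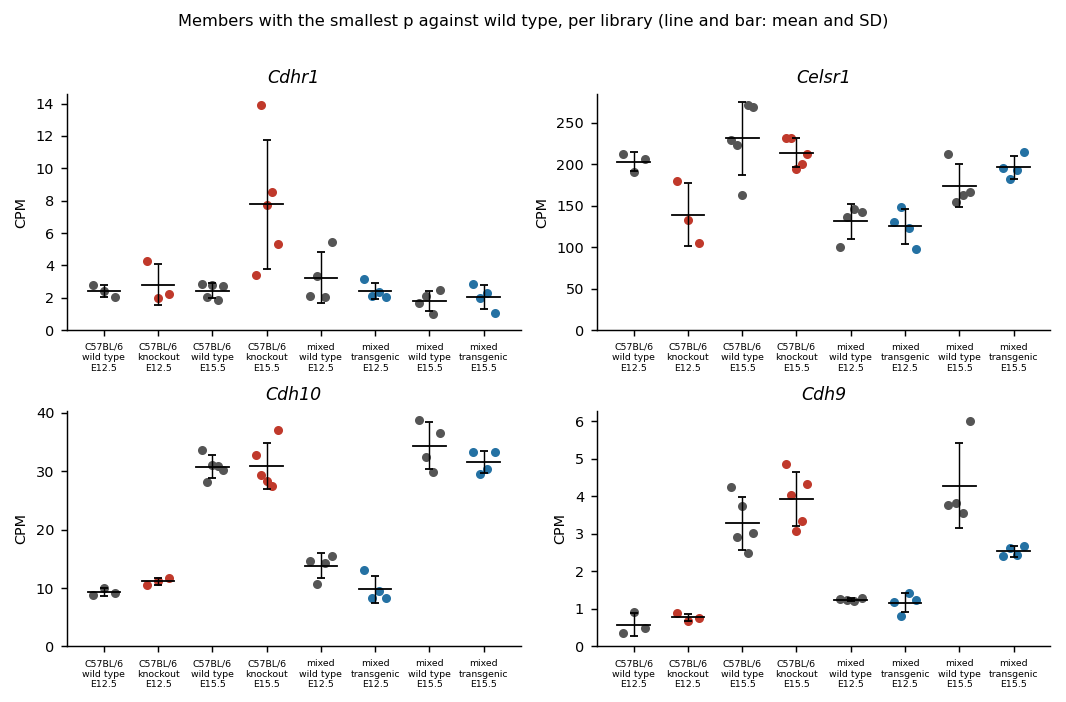
CPM of Cdhr1, Celsr1, Cdh10 and Cdh9 in each of the 32 libraries (points), by group, with the group mean (line) and SD (bar). Wild type is grey, labelled knockout red and Tg(Kat6b) blue, and mixed stands for FVBxBALB/c. The 5 labelled knockout libraries at E15.5 have 3.40 to 13.9 CPM of Cdhr1, above the 1.84 to 2.82 CPM of their controls.

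At E12.5 the member with the smallest p in the knockout comparison was Celsr1, a planar polarity receptor of progenitors. It measured 180, 133 and 105 CPM in labelled knockout and 213, 191 and 206 in wild type, so all 3 knockout libraries were below all 3 controls. The log2 fold change was -0.55 (SE 0.18, interval -0.94 to -0.17), with an edgeR adjusted p = 0.881. At E15.5 Celsr1 measured 194 to 232 CPM in labelled knockout and 163 to 272 CPM in wild type, which overlap. The 8 cortical markers were also lower in labelled knockout at E12.5, by a median of -0.29 log2 units with 0 of 8 called, and their part in the Celsr1 value was not tested. Groups did not overlap for 3 of 41 members at E12.5, where 6.90% of all genes showed this. The next smallest p values belonged to Pcdh9 (-0.28), Cdh10 (0.25), the X-linked Pcdh19 (-0.51) and Cdh15 (0.76), each with an edgeR adjusted p = 0.881. At E15.5 they belonged to Pcdh15 (0.35), Cdh7 (0.30), Pcdh11x (0.36) and Cdh1 (1.26), each with an edgeR adjusted p = 1.00. Cdh1, the epithelial E-cadherin, measured 1.16 and 1.32 CPM in replicates 3 and 4 and 0.128 to 0.239 in the other knockout libraries, and its log2 fold change was -0.39 without those replicates.

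Gain of Kat6b was examined in the mixed background. No member passed the edgeR threshold in Tg(Kat6b) at E12.5 or at E15.5, where 2 genes of 15556 passed at each age (0.0129%). DESeq2 and limma-voom called no member either. An unadjusted p under 0.05 was found for 1 of 40 members at each age, against 6.68% and 2.22% of all genes. The members' median log2 fold change was -0.07 at E12.5 and -0.04 at E15.5. A 2-fold change was outside the 95% interval of 34 of 40 members at each age.

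Cdh10, a type II cadherin of neurons, had the smallest p at E12.5, with 13.2, 8.31, 9.51 and 8.23 CPM in Tg(Kat6b) and 14.6, 10.7, 14.3 and 15.6 in wild type. These overlap, and the log2 fold change was -0.49 (SE 0.15, edgeR adjusted p = 0.724). No tested member had groups that did not overlap at this age, where 2.83% of all genes did. Cdh9, a close relative of Cdh10, had the smallest p at E15.5. It measured 2.40, 2.61, 2.42 and 2.68 CPM in Tg(Kat6b) and 3.78, 3.83, 3.55 and 6.00 in wild type, so all transgenic libraries lay below all controls. Its log2 fold change was -0.75 (SE 0.22, interval -1.21 to -0.30), with an edgeR adjusted p = 1.00, and it was the single member of 40 without overlap, against 2.55% of all genes. The other members named by the rule had log2 fold changes of -0.27 for Pcdh18, -0.85 for Cdhr4, -0.23 for Cdh5 and -0.43 for Cdhr1 at E12.5. At E15.5 they had 0.27 for Fat4, -0.37 for Cdh18, 0.18 for Celsr1 and -2.22 for Cdh3, which averaged 0.451 CPM in wild type. The edgeR adjusted p of these 8 values was 0.752 to 1.00. Cdhr1, the leading member under loss of Kat6b, measured 2.88, 1.96, 2.26 and 1.05 CPM in Tg(Kat6b) at E15.5 and 1.65, 2.10, 1.02 and 2.46 in wild type. No member passed the test of a different genotype effect at the 2 ages, in labelled knockout (0% of 16118 genes) or in Tg(Kat6b) (0% of 15556). At an unadjusted p under 0.05 there were 5 of 41 and 1 of 40 members, against 2.72% and 4.04% of all genes, and DESeq2 and limma-voom called none.

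**Figure D2:**
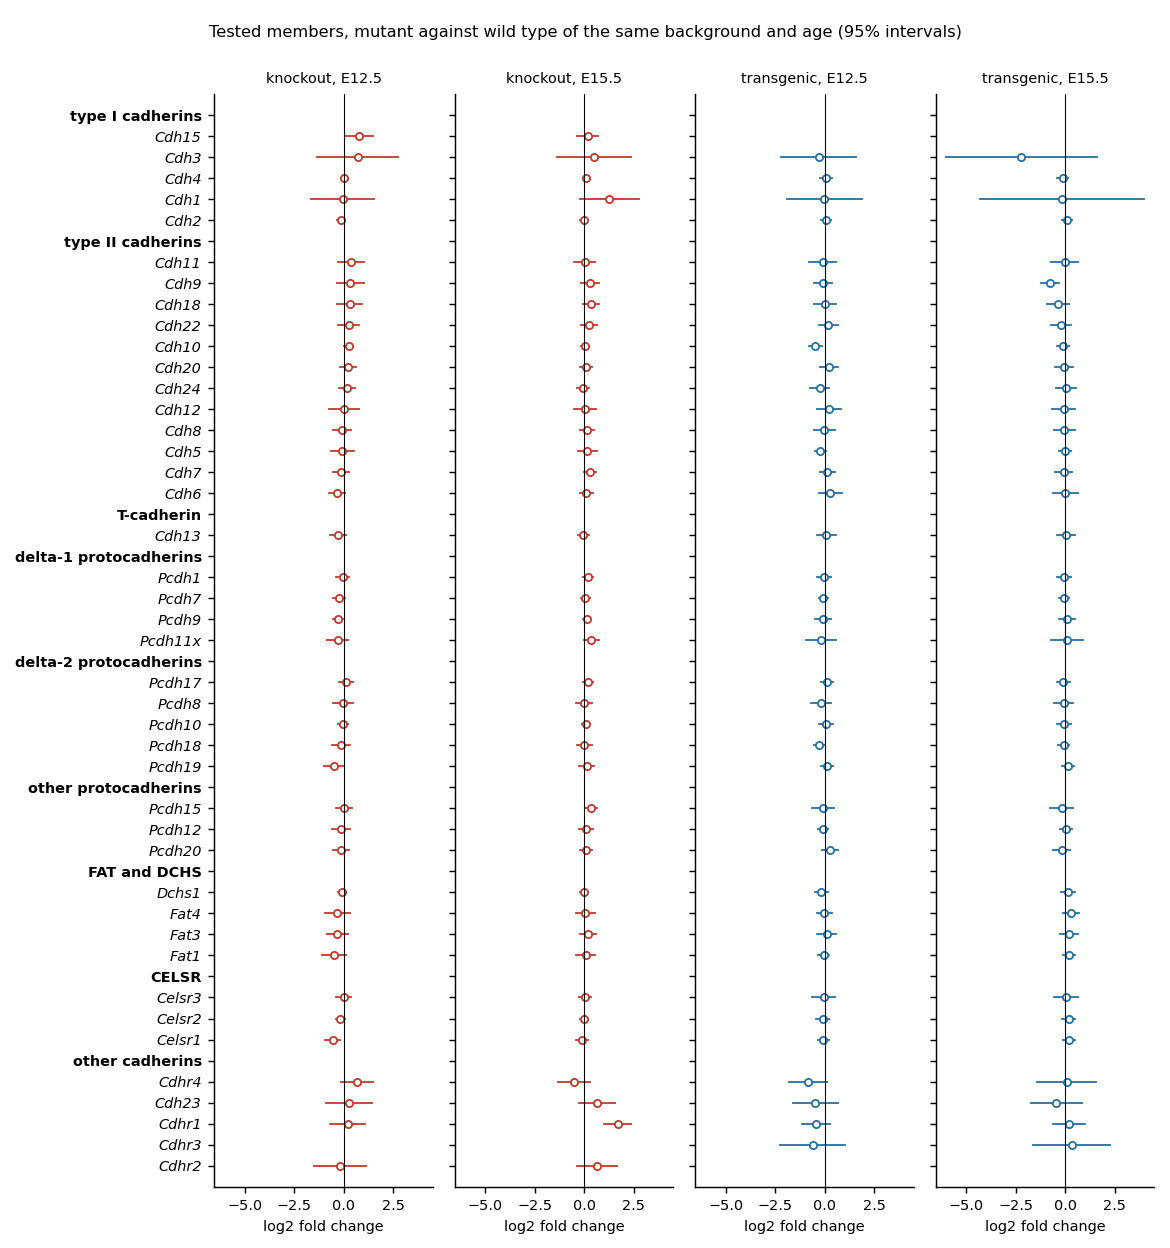
Log2 fold change of each tested member in labelled knockout (red) and Tg(Kat6b) (blue) against wild type of the same background and age, with 95% intervals. Members are grouped by family, open circles have an edgeR adjusted p of 0.05 or above, and all points are open. Cdhr1 in labelled knockout at E15.5, at 1.68, is the point farthest to the right.

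Many members differed between the ages. The wild-type libraries were dorsal telencephalon at E12.5 and cortex at E15.5. Age therefore stands here for both age and tissue taken, which cannot be told apart. In C57BL/6 wild type 21 of 41 tested members rose from E12.5 dorsal telencephalon to E15.5 cortex and 7 fell, with edgeR. Among all 16118 genes 28.6% rose and 28.2% fell (56.8% in all). In the mixed background 14 of 40 rose and 10 fell, beside 25.1% in each direction (50.1% in all). The members' median log2 fold change was 0.64 and 0.14, against -0.02 and -0.03 for all genes. Of the 39 members tested in both backgrounds, 13 rose in both and 7 fell in both. Of all genes tested in both, 22.4% rose and 20.9% fell in both. Of the 20 members, 12 that rose and 3 that fell (Pcdh18, Cdh5 and Cdhr4) passed in every alternative and leave-out that gave a value. Cdhr4 had a value in 14 settings in the mixed background, where Pcdh18 and Cdh5 had 15.

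**Figure D3:**
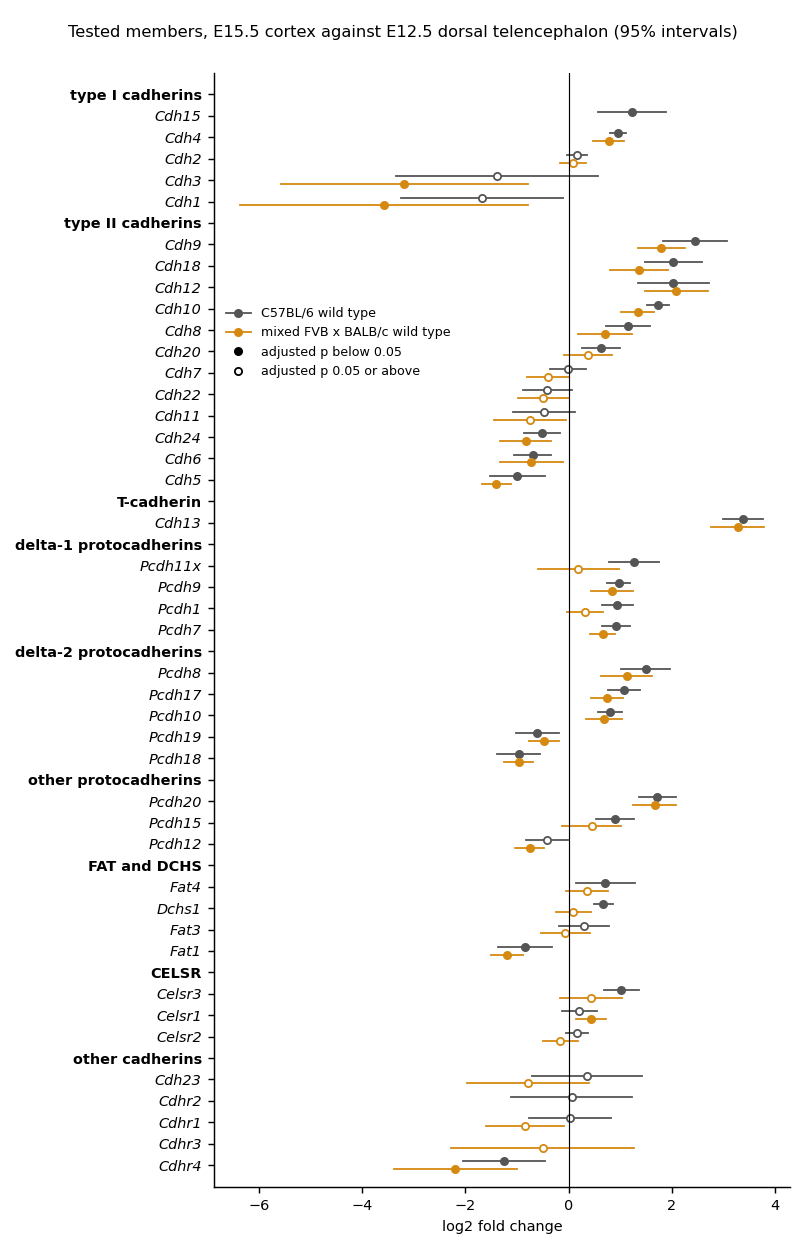
Log2 fold change of each tested member from E12.5 to E15.5 in wild-type embryos of C57BL/6 (grey) and FVBxBALB/c (orange), with 95% intervals, by family. Filled circles have an edgeR adjusted p below 0.05. Cdh13 stands farthest to the right in both, at 3.38 and 3.28, and the widest intervals belong to Cdh1 and Cdh3.

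Direction was shared by the mutant libraries. All 13 members that rose in both wild-type backgrounds had a higher mean at E15.5 in labelled knockout and in Tg(Kat6b), and all 7 that fell had a lower one. For Pcdh19 in labelled knockout the means were nearly equal, at 93.2 ± 23.0 CPM (SD, n = 3) and 92.8 ± 12.7 (n = 5). The share of all genes with such a shared direction was not counted. In 13 of 39 members the 14 E12.5 libraries and the 18 E15.5 libraries were apart without overlap, whatever their genotype and background, against 18.2% of all genes tested in both. Within each wild-type background the ages did not overlap for 28 of 41 members in C57BL/6, against 51.7% of all genes, and for 20 of 40 in the mixed background, against 43.0%. In 12 of the 13 (Pcdh7, Pcdh8, Pcdh9, Pcdh10, Pcdh17, Pcdh20, Cdh4, Cdh9, Cdh10, Cdh12, Cdh13 and Cdh18) E15.5 was above, and in Pcdh18 below. These counts include the wild-type libraries that gave the calls.

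Cdh13 encodes T-cadherin, which lacks the cytoplasmic tail of other cadherins and is held in the membrane by a lipid anchor. In C57BL/6 wild type it measured 6.23, 11.2 and 10.9 CPM at E12.5 and 94.4, 87.8, 103, 99.2 and 98.2 CPM at E15.5. The mixed wild type had 10.4, 9.38, 9.76 and 5.32 CPM at E12.5 and 83.4, 73.5, 76.2 and 96.5 at E15.5. The highest E12.5 library of all 14 had 14.1 CPM and the lowest E15.5 library of all 18 had 73.4. The fold change was 10.4 in C57BL/6 (log2 3.38, SE 0.18, edgeR adjusted p = 2.36e-09) and 9.71 in the mixed background (log2 3.28, SE 0.24, edgeR adjusted p = 3.47e-08). Labelled knockout went from 6.00, 8.29 and 8.54 CPM to 80.5 to 116 CPM, and Tg(Kat6b) from 6.49 to 14.1 CPM to 73.4 to 102 CPM. In every genotype the 2 ages lay far apart, with no overlap.

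Of the type I cadherins, 2 of 5 rose in C57BL/6, where 28.6% of all genes rose. In the mixed background 1 of 4 rose and 2 fell, beside 25.1% of all genes in each direction. Cdh2 passed in neither, with log2 fold changes of 0.17 (interval -0.03 to 0.36) in C57BL/6 and 0.08 (-0.16 to 0.33) in the mixed background. Cdh4, the retinal R-cadherin, rose from 92.2 ± 3.25 CPM (SD, n = 3) to 176 ± 12 (n = 5), a log2 fold change of 0.96, and by 0.78 in the mixed background. Cdh15, known from muscle, rose by 1.23 in C57BL/6 but only from 0.523 to 1.19 CPM, and was not tested in the mixed background. Cdh1 and Cdh3, the epithelial E- and P-cadherins, averaged 0.699 and 1.87 CPM over all libraries. Cdh1 measured 0.754, 0.297, 0.717 and 4.32 CPM in mixed wild type at E12.5 and 0.387, 0.0911, 0.0683 and 0 CPM at E15.5. Cdh3 measured 0.942, 1.22, 4.67 and 9.63 CPM at E12.5 and at most 1.37 CPM at E15.5. Both were called lower there, at log2 fold changes of -3.58 and -3.18, with the highest values in replicate 4, which also had the most meningeal and mesenchymal marker RNA of its group, 2093 CPM. Without replicate 4 both calls ended, at -2.14 (edgeR adjusted p = 0.196) and -2.35 (0.123), and they also ended without replicates 2, 3 or 4 at E15.5 for Cdh1 and without replicates 1, 2 or 4 at E15.5 for Cdh3. Without replicate 3 at E15.5 the Cdh3 value was -5.01.

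Type II cadherins split. In C57BL/6, 6 of 12 rose and 3 fell, where 28.6% and 28.2% of all genes did. In the mixed background 5 rose and 3 fell, beside 25.1% of all genes in each direction. A run of 5 of them lies on chromosome 15 (RefSeq positions on GRCm38.p6): Cdh6 at chr15:13028699-13176407, Cdh9 at chr15:16728550-16857138, Cdh10 at chr15:18818869-19016206, Cdh12 at chr15:20448878-21598421 and Cdh18 at chr15:22548898-23477491. The last 4 rose in both backgrounds, and Cdh6, at one end of the run, fell in both. Cdh12 measured 1.13, 2.46 and 2.31 CPM at E12.5 in C57BL/6 wild type and 11.7, 7.89, 5.67, 8.07 and 6.54 CPM at E15.5. The mixed wild-type libraries had 3.02, 2.84, 2.22 and 1.20 CPM and then 11.6, 9.71, 8.19 and 8.65 CPM. The ages did not overlap, and the log2 fold changes were 2.03 (SE 0.33, edgeR adjusted p = 5.70e-05) and 2.09 (SE 0.29, edgeR adjusted p = 1.74e-05).

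Cdh10 measured 8.84, 10.03 and 9.15 CPM in C57BL/6 wild type at E12.5 and 33.7, 28.2, 31.0, 31.0 and 30.1 CPM at E15.5. In mixed wild type it went from 14.6, 10.7, 14.3 and 15.6 CPM to 38.8, 32.4, 29.9 and 36.6 CPM. Replicates lay close together and the ages far apart, with log2 fold changes of 1.74 (SE 0.10, edgeR adjusted p = 2.78e-09) and 1.34 (SE 0.15, edgeR adjusted p = 2.43e-06). Cdh9 rose by 2.45 and 1.80 from a level of 0.577 and 1.24 CPM, and Cdh18 by 2.03 and 1.37 from 0.842 and 0.985 CPM. Cdh8, which marks subsets of cortical neurons, rose by 1.15 and 0.71, and Cdh20 rose by 0.64 in C57BL/6, with a value of 0.38 that did not pass in the mixed background. In the mixed background the Cdh8 call had an edgeR adjusted p of 0.0261, which was 0.0525 to 0.0553 with wild-type replicate 2 at E12.5 or wild-type replicate 1 or 2 at E15.5 left out, and the value was 0.46 without replicate 4 at E12.5. Cdh6 fell by 0.69 on the log2 scale in C57BL/6, and by 0.72 in the mixed background. The mixed call ended, at an adjusted p of 0.0848 to 0.165, without wild-type replicates 1, 2 or 3 at E12.5 or replicates 3 or 4 at E15.5.

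Cdh5 encodes VE-cadherin of endothelial junctions. In C57BL/6 wild type it measured 64.1, 33.7 and 36.0 CPM at E12.5 and 18.2, 22.7, 26.2, 19.9 and 22.4 CPM at E15.5. Mixed wild-type libraries had 31.3, 33.9, 40.3 and 45.9 CPM and then 13.4, 16.3, 12.6 and 14.0 CPM. Every E15.5 library was below every E12.5 one of its background, with log2 fold changes of -1.0 (SE 0.25, edgeR adjusted p = 0.00314) and -1.40 (SE 0.13, edgeR adjusted p = 3.10e-07). Without C57BL/6 wild-type replicate 1 at E12.5, the highest and from another litter than the rest, the first value was -0.64 (edgeR adjusted p = 0.0413). The 12 endothelial and pericyte markers summed to 241 to 403 CPM at E12.5 and 227 to 269 at E15.5 in C57BL/6 wild type, and to 250 to 363 and 175 to 209 in the mixed one. Of them 5 fell and 2 rose in C57BL/6, where 28.2% and 28.6% of all genes did. In the mixed background 8 fell and 2 rose, beside 25.1% of all genes in each direction. The part of these markers' tissue in the Cdh5 values was not tested. Cdh24 fell by 0.51 and by 0.83, and the C57BL/6 call ended without wild-type replicate 3 at E12.5 (-0.32, edgeR adjusted p = 0.139). Cdh7, Cdh11 and Cdh22 did not pass in either background.

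**Figure D4:**
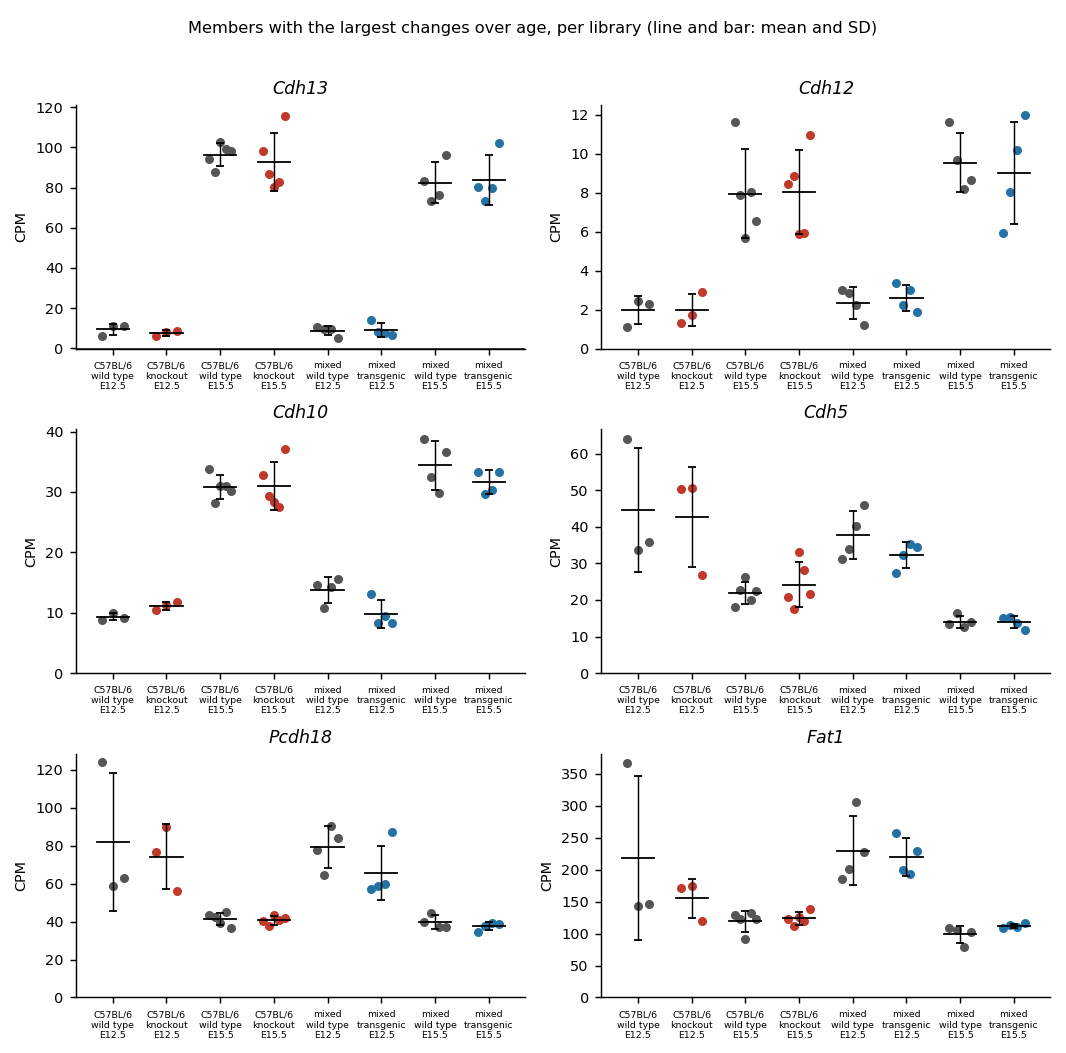
CPM in each of the 32 libraries (points) for the 3 members with the largest rise over age (Cdh13, Cdh12 and Cdh10) and the 3 with the largest fall (Cdh5, Pcdh18 and Fat1) in C57BL/6 wild type among called members averaging at least 5 CPM, with group mean (line) and SD (bar). Grey is wild type, red labelled knockout and blue Tg(Kat6b), and mixed stands for FVBxBALB/c. Cdh13 stays at or below 14.1 CPM in all E12.5 libraries and at or above 73.4 CPM in all E15.5 ones.

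In C57BL/6, 4 of 4 delta-1 protocadherins rose, beside 28.6% of all genes. Pcdh11x, on the X chromosome, had a log2 fold change of 1.26, Pcdh9 0.98, Pcdh1 0.95 and Pcdh7 0.92. In the mixed background Pcdh9 (0.85) and Pcdh7 (0.66) rose, and Pcdh1 (0.32, interval -0.03 to 0.68) and Pcdh11x (0.19, interval -0.59 to 0.97) did not pass. The difference between backgrounds was -0.62 (SE 0.20) for Pcdh1 and -1.07 (SE 0.44) for Pcdh11x, each with an edgeR adjusted p = 0.934. All but 1 of the C57BL/6 wild-type libraries at E12.5 and all but 1 of the mixed wild-type libraries at E15.5 came from male embryos by their Xist and Y-linked counts, and the part of sex in the values of the X-linked Pcdh11x and Pcdh19 was examined only with Y-linked expression as a covariate.

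All 5 delta-2 protocadherins passed in both backgrounds, 3 upward and 2 downward, where 22.4% of all genes rose and 20.9% fell in both. Pcdh8, also called arcadlin, had log2 fold changes of 1.5 and 1.13, Pcdh17 of 1.08 and 0.75, and Pcdh10 of 0.81 and 0.69. Pcdh18 fell by 0.97 in each background, and Pcdh19, an X-linked gene mutated in a childhood epilepsy of girls, fell by 0.60 and 0.47. The 250 bases before the transcript start that the RefSeq promoter table gives for each gene are printed here since 3 of these genes rose and 2 fell with age, and the capitals mark the CCAAT box, searched on both strands and found as its complement.

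Pcdh8: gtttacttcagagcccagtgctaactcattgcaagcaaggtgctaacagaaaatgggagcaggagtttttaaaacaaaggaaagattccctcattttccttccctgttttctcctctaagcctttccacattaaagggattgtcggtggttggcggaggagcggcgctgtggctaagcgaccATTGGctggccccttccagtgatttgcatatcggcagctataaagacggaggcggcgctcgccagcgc
Pcdh10: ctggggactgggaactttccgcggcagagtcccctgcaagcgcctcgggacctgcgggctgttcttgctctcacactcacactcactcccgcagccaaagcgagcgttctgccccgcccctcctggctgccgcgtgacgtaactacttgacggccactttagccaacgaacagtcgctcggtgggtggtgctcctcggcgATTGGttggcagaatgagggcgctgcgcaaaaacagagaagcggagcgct
Pcdh17: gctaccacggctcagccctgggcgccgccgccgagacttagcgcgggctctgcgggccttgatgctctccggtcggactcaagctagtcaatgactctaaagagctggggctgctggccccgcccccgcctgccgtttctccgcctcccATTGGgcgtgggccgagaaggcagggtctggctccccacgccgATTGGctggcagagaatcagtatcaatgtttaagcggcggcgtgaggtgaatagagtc
Pcdh18: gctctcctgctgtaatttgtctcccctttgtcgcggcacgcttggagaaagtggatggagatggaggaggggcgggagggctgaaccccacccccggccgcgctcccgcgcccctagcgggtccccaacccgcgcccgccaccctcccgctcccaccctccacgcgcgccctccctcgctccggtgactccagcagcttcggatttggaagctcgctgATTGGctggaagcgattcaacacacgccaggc
Pcdh19: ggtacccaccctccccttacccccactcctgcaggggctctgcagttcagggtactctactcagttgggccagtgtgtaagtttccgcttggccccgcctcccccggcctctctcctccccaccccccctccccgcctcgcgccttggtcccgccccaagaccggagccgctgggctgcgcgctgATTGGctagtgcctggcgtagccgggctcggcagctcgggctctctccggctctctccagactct

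They lie on GRCm38.p6 at chr14:79771313-79771562 (minus strand), chr3:45378148-45378397 (plus), chr14:84443313-84443562 (plus), chr3:49757317-49757566 (minus) and chrX:133688994-133689243 (minus). CCAAT was present in 5 of 5, in 47.2% of the 36 promoters of the 33 members with an entry and in 33.8% of 32851 promoters of the table. For Pcdh18 and Pcdh19 the table's start lies within the RefSeq gene, so that the last 67 and 51 bases of their windows are inside the gene's span. The box nearest the table's start lay 27 to 63 bases before it, and in Pcdh18 it is within that span. All 5 also hold the longer string ATTGGNTNG, read off these sequences after they were seen, which 3.70% of all promoters hold on either strand. It was present in genes that rose and in genes that fell. The string contains the CCAAT box as its complement. The other motifs were searched on both strands in the same windows. GGGCGG was in 4 of 5 (32.7% of all promoters), CANNTG in 1 of 5 (66.2%), CAGGTG, a form of CANNTG, in 0 of 5 (17.2%) and TATAAA in 1 of 5 (12.4%).

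Pcdh18 measured 124, 58.8 and 63.2 CPM in C57BL/6 wild type at E12.5 and 43.4, 42.2, 39.3, 44.8 and 36.6 CPM at E15.5. In mixed wild type it measured 77.8, 64.5, 90.4 and 83.8 CPM and then 39.8, 44.8, 36.9 and 37.4 CPM. All E15.5 libraries were below all E12.5 ones, and the edgeR adjusted p was 0.000573 and 1.46e-05. Replicate 1 of C57BL/6 wild type at E12.5 was the highest, with 1432 CPM of meningeal and mesenchymal markers against 462 and 605 in the other 2. It also came from a different litter than the other 2, so litter and marker RNA cannot be told apart in this difference. Without replicate 1 Pcdh18 had a log2 fold change of -0.54 (edgeR adjusted p = 0.00229), and Pcdh19 one of -0.25 (adjusted p = 0.232), which ended its call.

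Among the remaining protocadherins Pcdh20 rose by 1.72 and 1.67 on the log2 scale, from 3.97 to 12.8 CPM in C57BL/6 and from 2.63 to 8.19 in the mixed background. Pcdh15, a component of the tip link of hair cells, rose in C57BL/6 (0.90), and in the mixed background its value was 0.45 with an edgeR adjusted p = 0.183. Pcdh12, an endothelial protocadherin, fell by 0.76 in the mixed background and had -0.42 in C57BL/6, which did not pass. Cdh23, the other tip-link gene, did not pass in either background, nor did Cdhr1. Cdhr4 fell by 1.25 and by 2.19, at 1.13 CPM or less.

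Of the Fat and Dachsous genes, Fat1 fell in both backgrounds. It measured 367, 142 and 147 CPM in C57BL/6 wild type at E12.5 and 128, 123.4, 91.1, 132 and 122 CPM at E15.5. The mixed wild type measured 185, 200.5, 306 and 227 CPM and then 109, 105, 79.1 and 103 CPM. The log2 fold changes were -0.85 (SE 0.24, edgeR adjusted p = 0.00832) and -1.19 (SE 0.14, edgeR adjusted p = 3.89e-06). The C57BL/6 value rested on replicate 1 at E12.5, without which it was -0.25 (edgeR adjusted p = 0.143). That library came from a different litter than the other E12.5 ones of C57BL/6 wild type. The mixed groups did not overlap, and no single library ended that call.

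Dchs1, the ligand of FAT4, rose in C57BL/6 from 220, 215 and 208 CPM to 347, 351, 264, 357 and 356 CPM. All 5 older libraries were above all 3 younger ones, with a log2 fold change of 0.67 (SE 0.09) and an edgeR adjusted p = 7.18e-06. In mixed wild type it measured 209, 214, 247 and 143 CPM at E12.5 and 226, 223, 192 and 213 CPM at E15.5, which overlap, with a log2 fold change of 0.10 (interval -0.24 to 0.43). Fat4 was called higher in C57BL/6 (0.71, edgeR adjusted p = 0.0333), with a value of 0.36 that did not pass in the mixed background. That call was lost without any of 5 of the 8 libraries, at adjusted p of 0.0524 to 0.148. Without replicate 1 at E12.5 the Fat4 value was 1.23 (edgeR adjusted p = 0.000345). Fat3 did not pass in either background.

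The planar polarity receptors differed. Celsr3, which acts in axon tract formation, rose by 1.03 in C57BL/6, from 138 ± 28.7 CPM (SD, n = 3) to 276 ± 34 (n = 5), and had 0.44 with an edgeR adjusted p = 0.210 in the mixed background. Celsr1 rose by 0.43 in the mixed background and had 0.21 in C57BL/6, which did not pass. The mixed call ended without replicate 1 at E12.5 or replicate 1 at E15.5, at adjusted p of 0.0504 and 0.0552. Celsr2, the most abundant of the 3, did not pass in either, at 0.17 and -0.16.

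Markers of meninges and mesenchyme moved with age in the same libraries. Of 14 markers 10 fell and 0 rose in C57BL/6, and 13 fell and 0 rose in the mixed background. Among all genes 28.2% and 25.1% fell. In each of the 4 E12.5 groups Cdh11 was highest in the library with the most of this RNA. It measured 168, 80.3 and 88.9 CPM in C57BL/6 wild type at E12.5, 120, 234 and 82.0 in labelled knockout, 89.0, 73.0, 146 and 208 in mixed wild type and 82.4, 81.5, 88.6 and 227 in Tg(Kat6b). At E15.5 it lay between 66.8 and 88.8 CPM in all 18 libraries. The part of this tissue in the falls of Fat1, Pcdh18 and Pcdh19 was not tested.

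**Figure D5:**
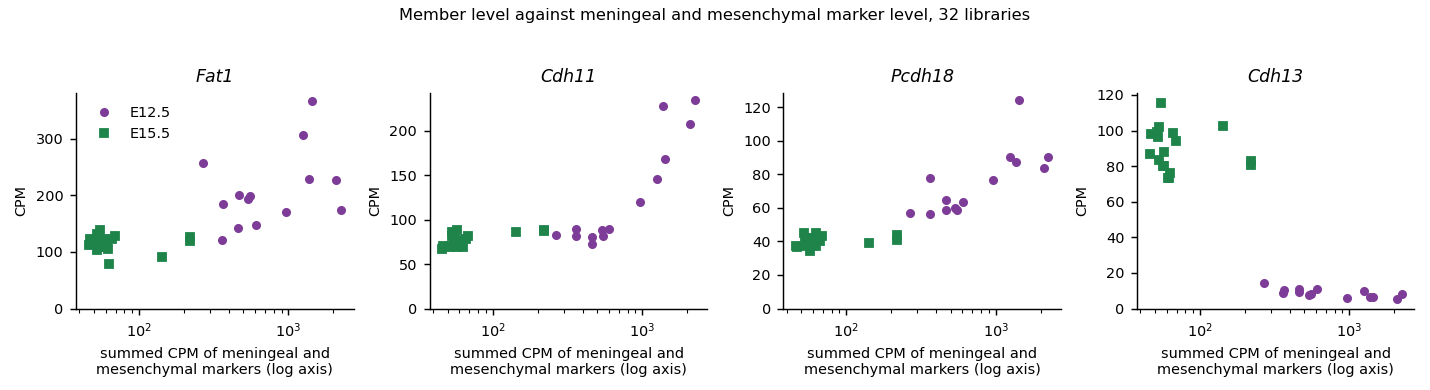
CPM of Fat1, Cdh11, Pcdh18 and Cdh13 against the summed CPM of 14 meningeal and mesenchymal markers (log axis) in 32 libraries, circles for E12.5 and squares for E15.5. Cdh11 lies between 66.8 and 88.8 CPM in the E15.5 libraries and reaches 234 CPM at E12.5 where the markers sum to 2248 CPM.

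Wild-type embryos of both backgrounds were also compared, though background and sequencing batch cannot be told apart here. At E12.5 Cdh10 (log2 fold change 0.57) and Cdh9 (1.04) were higher and Celsr1 (-0.62) was lower in the mixed embryos, 3 of 41 members against 8.36% of 15941 genes (3.64% higher and 4.72% lower). The groups did not overlap for 5 of 41, against 14.8% of all genes, and for 7 of 41 at E15.5, against 25.3%. Without C57BL/6 wild-type replicate 4 no member passed, and without C57BL/6 replicate 1 or mixed replicate 4 there were 6. The Cdh9 call also ended without C57BL/6 replicate 1 or mixed replicates 1, 2 or 3 and its value was 1.62 without C57BL/6 replicate 3, and the Celsr1 call ended without C57BL/6 replicate 3 or mixed replicate 1. At E15.5 there were 5 lower and 0 higher of 41, against 20.4% of all genes (9.54% lower and 10.9% higher). Pcdh1 measured 25.0, 29.8, 24 and 32.7 CPM in mixed embryos and 46.5, 46.3, 41.5, 46.1 and 43.6 in C57BL/6, without overlap, at a log2 fold change of -0.67 (SE 0.13) with an edgeR adjusted p = 0.00196. Dchs1 had a value of -0.64 (edgeR adjusted p = 0.00227), Pcdh20 -0.64 (0.00963), Cdh5 -0.63 (0.0217) and Pcdh8 -0.64 (0.0422). Without C57BL/6 replicate 3 the count was 7. Without mixed replicate 3 the count was 3, with Cdh5 at 0.0503 and Pcdh8 at 0.0820, and Pcdh8 was also lost without each other library in turn. Cdh5 was lost without mixed replicate 1 (0.0560) too. No member passed the test of a different age effect between backgrounds (0% of 15941 genes), and 37 of 41 values were below 0, with a median of -0.34 beside -0.01 for all genes, of which 48.4% were above 0. At an unadjusted p under 0.05 there were 4 of 41, against 5.17% of all genes, and DESeq2 and limma-voom called none.

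Genes that work with the cadherins were compared in the same way. Of 41 partner genes in the files 40 were tested, and none passed in either genotype at either age. Over age 12 rose and 14 fell in C57BL/6, beside 28.6% and 28.2% of all genes, and 11 rose and 15 fell in the mixed background, beside 25.1% each. The catenins split: Ctnna2, the neural alpha-catenin, rose by 1.12 and 1.01 on the log2 scale and Ctnnd2, the neural delta-catenin, by 1.13 and 1.10, while Ctnna1, the widely expressed alpha-catenin, fell by 0.81 and by 0.76. Nectin3, a nectin of adherens junctions, fell by 1.20 and by 1.01. Among transcriptional repressors of cadherins Zeb2 rose by 1.25 and 1.38, and Zeb1, Snai1, Snai2 and Twist1 fell, Twist1 being also one of the 14 meningeal and mesenchymal markers. Of 11 planar polarity genes Prickle1 and Prickle2 rose in both backgrounds, and 6 fell in each.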

How the data were processed

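RNA-seq read counts per gene from 32 libraries in 8 groups were used as the authors deposited them. Per the submitters' processing notes, bcl2fastq and featureCounts were used with mm10, while the sources used here name no aligner, annotation or version. The deposited tables also hold a gene length, an other value besides the counts, which was used to scale counts to RPKM. Rows without a gene name held 0.305% to 2.00% of the counts and were left out. Libraries were grouped by their labels. Genes passed edgeR's filterByExpr (minimum count 10, minimum total 15) and were tested with edgeR's quasi-likelihood test (edgeR 4.0.16, limma 3.58.1, R 4.3.3) with Benjamini-Hochberg adjustment over all genes of a fit, in 1 fit per background (4 groups each) for genotype and age and 1 fit of the 4 wild-type groups for background. Adjusted p-values below 0.05 were called. They measure the spread between libraries, which were taken to come from separate embryos. Counts per library of 10383066 to 49508669 limit the precision for members below about 1 CPM.

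The alternatives were other size factors, no filter on low counts, DESeq2 1.42.0, limma-voom, a block for replicate number or litter, a Y-linked covariate, fits of the compared groups alone, and each library left out. In C57BL/6 at E15.5 the labels tie each replicate number to a litter with a library of each genotype. At E12.5 some replicate numbers share a litter. The main fit did not pair littermates, so the number or litter was used as a block in these alternatives. The fit was tested on simulated data. Members and lists were chosen with earlier results of these data known. Named members are all those called in a comparison, or the 5 with the smallest p where fewer than 5 were called. Library values are given for the 3 called members with the largest rise and fall over age at 5 CPM or more, and for others (Cdhr1, Celsr1, Cdh9, Dchs1, Pcdh1, Cdh1, Cdh3 and Cdh11) chosen after their values were seen. Promoter sequences are from RefSeq on GRCm38.p6.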

Additional observations from a re-analysis of the deposited data

Results flagged for a closer look

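Groups of 4 or 5 libraries were examined for Cdh13, Cdh12, Cdh10, Cdh5, Pcdh18, Fat1, Cdhr1, Celsr1, Cdh9, Dchs1 and Pcdh1. Of 66 such groups 4 held a library far from the rest, and chance gives about 1 in 20. Cdh1, Cdh3 and Cdh11, also shown library by library, were not examined in this way. Pcdh18 measured 87.1 CPM in Tg(Kat6b) replicate 4 at E12.5, where the others had 57 to 59.7 CPM, and that library had the most meningeal and mesenchymal marker RNA of its group, whose part was not tested. Fat1 measured 91.1 CPM in C57BL/6 wild-type replicate 3 at E15.5, below the 122 to 132 CPM of the others. Dchs1 was low in the same library, at 264 CPM against 347 to 357. Cdh9 measured 6.00 CPM in mixed wild-type replicate 4 at E15.5, above the 3.55 to 3.83 CPM of the others.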

How the results depend on the processing

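Over 81 fits, 1639 values of single members were recomputed: 1555 kept their direction and side of the threshold, 78 lost a call, 5 gained one and 1 reversed. The reversal was Cdh1 in labelled knockout at E15.5, which went to -0.39 without replicates 3 and 4. The counts of members called over age stayed at 27 to 29 in C57BL/6 and 20 to 25 in the mixed background, with 27 to 29 and 21 to 25 when single libraries were left out. In the genotype comparisons and their differences no member was called under any alternative run, except that DESeq2 called 1 (Cdhr1) in labelled knockout at E15.5. With the replicate block 0 members were called in each genotype comparison, and Cdhr1 had 1.57 (edgeR adjusted p = 0.848), or an adjusted p = 0.603 with a litter block. In the mixed background same-numbered libraries correlated at -0.14 to 0.60 and share only a number. For comparisons of ages and of backgrounds the replicate block also tied same-numbered libraries across ages or backgrounds. The labels give such libraries no shared litter. Between backgrounds at E12.5 the main count of 3 became 1 with the replicate block, 1 with the Y-linked covariate, 0 with only the groups compared and 0 to 6 without single libraries. At E15.5 the main count of 5 became 9 with DESeq2, 3 with the replicate block, 12 with only the groups compared and 3 to 7 without single libraries. Over all genes, DESeq2 called 5 against 1 and 7 against 0 in labelled knockout at the 2 ages, 6 and 7 against 2 in Tg(Kat6b), 9 against 0 for the difference of age effects between backgrounds, and 1 against 0 for each difference of genotype effects between ages. Without the filter on low counts the difference of age effects gave 1. Fits of only the groups compared called 2 against 0 in labelled knockout and 4 against 2 in Tg(Kat6b) at E15.5, and 203 and 5002 against 1333 and 3253 between backgrounds, where the Y-linked covariate gave 765 at E12.5. In labelled knockout at E12.5 the replicate block, the litter block, the Y-linked covariate and the fit of only the groups compared gave 0 against 1, and at E15.5 the litter block gave 1 against 0. The causes were not tested.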
